A study of Homo sapiens with 2 samples.

Results

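The actomyosin and focal adhesion scaffold was followed here as a set of 43 genes, chosen by symbol for their place in actin filaments, myosin II, tropomyosin and the adhesion plaque and matched by Entrez ID, out of 16399 genes listed. Their RNA was measured in A549 cells, a widely used line from a human lung adenocarcinoma, in 1 library from cells carrying the empty vector and 1 library from cells made to overexpress PKP2 through an SFB-tag construct. PKP2 encodes plakophilin 2, which belongs to the armadillo family and sits in the plaque of desmosomes, the junctions to which keratin filaments attach. Both cultures were at passage 5 and were grown in DMEM with serum; whether the overexpressing cells were a pool or a clone is not given in the sources used here. PKP2 itself stood at 27.3 CPM with the vector and at 268 CPM with the PKP2 construct, a ratio of 9.82 (8.92 to 10.8). CPM is the estimated count per 1000000 counts of the library, and each interval in brackets after a ratio is an exact 95% Clopper-Pearson interval that covers counting error only. The libraries held 16996976 counts (vector) and 16808842 counts (PKP2), of which the 43 genes took 2.92% and 3.06%. With 1 library per group no difference has a replicate check, so the comparisons describe the pair of libraries, not the treatments in general. Paired values below give the vector library first.

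Actin filaments give a cell its cortex and its stress fibres. Non-muscle myosin II, a hexamer of heavy chains, essential light chains and regulatory light chains, pulls on those filaments once the regulatory light chain is phosphorylated by myosin light chain kinase or a ROCK kinase, and tropomyosins along the filament set which motors and severing proteins can reach it. At focal adhesions the force passes through talin, filamin, alpha-actinin and zyxin to the integrins, while FAK, paxillin, p130Cas and the ILK complex act as signalling hubs. In epithelial cells the same machinery pulls on cell-cell junctions, and several of its genes are textbook targets of serum response factor (SRF), which binds the CArG box and whose MRTF coactivators are held back by free actin monomers.

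The set as a whole was level between the libraries, while single members differed in both directions. The difference used throughout is log2(CPM + 1) of the PKP2 library less the same for vector, and a gene counted as higher or lower when it differed by at least 1.2-fold on this scale, which understates the difference of genes near 1 CPM. Of the 43 members, 6 were higher (TPM2, TPM1, CNN2, ZYX, MYL6 and TNS1) and 6 were lower (FMN1, MYLK, DIAPH3, ROCK2, ROCK1 and TNS3). Among the 12820 genes that reached 1 CPM in either library, called expressed here, 8.70% were higher and 11.0% lower by the same rule. Of the members 41 reached that level, and 6 in each direction is 14.6% of them. CNN1 and FLNC did not reach it, and MYL9 and TNS1 did so only through the PKP2 library; over the 39 members that reached it in both libraries 5 were higher and 6 lower, or 12.8% and 15.4%. At 1.5-fold there was 1 member higher (TNS1) and 1 lower (FMN1), against 0.733% and 0.788% of all expressed genes, and no member was 2-fold apart on this scale; among the 39 members 0 were 1.5-fold higher and 1 lower. The differences also moved with transcript length, so each call that ended once a fitted trend on length and GC content over all expressed genes was removed is marked as such beside its gene. The median difference was 0.04 over the 41 members and 0.00 over all expressed genes.

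Most members are abundant, so they were also set beside genes of high level. Of the 36 members whose mean was 50 CPM or above, a bound picked after the values were seen, 5 were higher and 4 lower. This is 13.9% and 11.1%, where 3.75% and 9.25% of the 4431 such genes were. With the length and GC trend removed only TPM1 (0.35) stayed higher and only MYLK (-0.34) lower among the 36. The share of all genes of that level past 1.2-fold after the removal was not counted. The counting interval of the ratio lay above 1 for 18 of these 36 members and below 1 for 10, against 26.1% and 32.4% of the genes of that level. The SD of the difference was 0.20 over the 36 members and 0.18 over the 4431 genes.

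**Figure D1:**
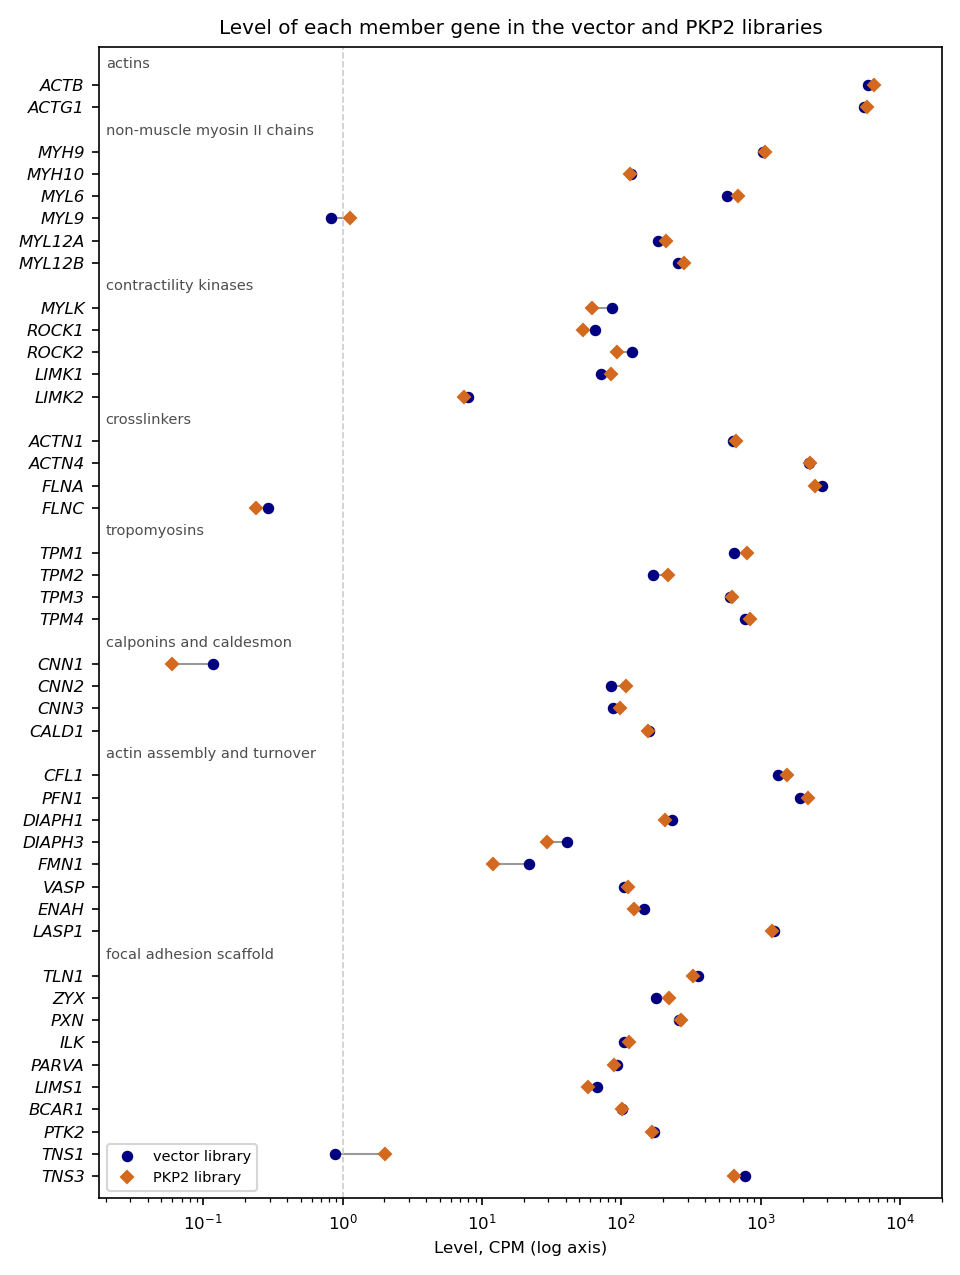
Level of all 43 members in CPM (log axis) in the vector library (circles) and the PKP2 library (diamonds), grouped by role, with a dashed line at 1 CPM. ACTB and ACTG1 lie at the far right in both libraries, from 5543 to 6482 CPM, 4 members (MYL9, FLNC, CNN1 and TNS1) lie near or under 1 CPM, and the symbols of most members nearly touch.

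The cytoplasmic actins were the most abundant members. ACTB (chromosome 7, 5527147 to 5563784, minus strand, GRCh38), which encodes beta-actin, was measured at 5863 CPM with vector and 6482 CPM with PKP2, a ratio of 1.11 (1.10 to 1.12). ACTG1 (chromosome 17, 81509971 to 81523847, minus strand), which encodes gamma-actin, was measured at 5543 and 5751 CPM, a ratio of 1.04 (1.03 to 1.05). Both were thus slightly above 1 and inside the 1.2-fold bound. With the trend removed ACTB lay at 0.04 and ACTG1 at -0.07, so the direction of ACTG1 was not kept. Together the pair took 1.14% and 1.22% of the library totals. Both have fractional counts, which mark reads divided between similar genes, but the counts do not show which genes shared them. Their coding sequences are close, so reads may be divided between ACTB and ACTG1, and the split between them is uncertain.

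Myosin II light chains were slightly higher in the PKP2 library and the heavy chains were close to level. This contrast was not kept with the trend removed. The heavy chains MYH9 and MYH10 then lay at 0.11 and 0.09, and the light chains MYL12A, MYL12B and MYL9 at 0.07, 0.02 and 0.12. MYL6 (chromosome 12, 56158161 to 56163496), the essential light chain, was measured at 575 CPM with vector and 691 CPM with PKP2, a ratio of 1.201 (1.17 to 1.23) at the bound of the rule, and its call ended with the trend removed (0.14). The regulatory light chain genes MYL12A and MYL12B, which carry the phosphorylation site and are neighbours on chromosome 18, lay at 183 and 209 CPM and at 254 and 284 CPM, with ratios of 1.14 (1.08 to 1.19) and 1.12 (1.07 to 1.17). MYL9, the regulatory light chain of smooth muscle, was nearly silent at 0.824 and 1.13 CPM, from 14 and 19 counts, and its interval of 0.652 to 2.96 includes 1. The heavy chain of myosin IIA, MYH9, lay at 1043 and 1082 CPM (ratio 1.04, 1.02 to 1.06). MYH10, the heavy chain of myosin IIB, lay at 117 and 115 CPM with an interval of 0.923 to 1.05. Of the 6 chains, MYL6, MYL12A, MYL12B and MYH9 thus had an interval above 1, and for MYL9 and MYH10 no difference was detectable at this depth.

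The 3 kinases of the set that phosphorylate the regulatory light chain, MYLK, ROCK2 and ROCK1, stood on the other side. This does not extend to every kinase of the machinery. DAPK3, outside the set, had a ratio of 1.24 (1.10 to 1.40) and lay at 0.15 with the trend removed. MYLK (chromosome 3, 123610049 to 123884331, minus strand), which encodes myosin light chain kinase, was measured at 86.2 CPM with vector and 61.3 CPM with PKP2, 1.41-fold lower (1.30 to 1.52). ROCK2 (chromosome 2, 11179761 to 11348330, minus strand) lay at 119 and 93.8 CPM, 1.26-fold lower (1.18 to 1.35), with a fractional count. ROCK1 (chromosome 18, 20946906 to 21111851, minus strand), its paralog, lay at 64.8 and 53.5 CPM, 1.21-fold lower (1.11 to 1.32). All 3 were lower in the PKP2 library, by more than counting error, but with the trend removed only MYLK stayed past 1.2-fold (-0.34), while ROCK2 lay at -0.15 and ROCK1 at -0.08. All 3 have long transcripts. The ribosomal protein genes, most of which have short ones, were above 0 in 28 of 28 cases. The part of RNA quality in the differences of these 3 kinases was not tested. The LIM kinases, which phosphorylate and inactivate cofilin, did not share this: LIMK1 lay at 72.1 and 83.8 CPM with a ratio of 1.16 (1.08 to 1.26), and LIMK2 at 7.94 and 7.44 CPM with an interval of 0.728 to 1.203. Summed over the 5 kinases the level was 349 CPM with vector and 299.8 CPM with PKP2.

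Crosslinking proteins were close to level. FLNA, the filamin that ties actin into a network and to integrin tails, lay at 2756 and 2458 CPM, 1.12-fold lower (1.11 to 1.14). The alpha-actinins bundle stress fibres and anchor them at adhesions. ACTN4 (fractional count) lay at 2215 and 2265 CPM with a ratio of 1.02 (1.01 to 1.04), and ACTN1 at 635 and 666 CPM with a ratio of 1.05 (1.02 to 1.08). FLNC, the filamin of striated muscle, had 5 and 4 counts, so no difference was detectable at this depth.

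Tropomyosins held 2 of the 6 higher members, TPM1 and TPM2, while TPM3 and TPM4 were within the 1.2-fold bound. With the trend removed only TPM1 stayed past this bound (0.35), and TPM2 lay at 0.20. The removal used the longest annotated transcript, 3957 nucleotides for TPM1, whose median protein-coding transcript has 1097 nucleotides. The TPM1 value with another transcript length was not tested. TPM1 (chromosome 15, 63042632 to 63071915), long known for its high-molecular-weight products on stress fibres, was measured at 640.2 CPM with vector and 803 CPM with PKP2, a ratio of 1.25 (1.22 to 1.29), with a fractional count. TPM2 (chromosome 9, 35681992 to 35690121, minus strand), the beta-tropomyosin gene, lay at 169 and 216 CPM, a ratio of 1.28 (1.22 to 1.35). TPM4 lay at 771 and 837 CPM (ratio 1.08, 1.06 to 1.11) and TPM3 (fractional count) at 604 and 618 CPM (ratio 1.02, 0.995 to 1.05). All 4 genes were at or above level, and the summed tropomyosin level was 2185 CPM against 2474 CPM, a ratio of 1.13 (1.12 to 1.15).

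Calponin 2 went with the tropomyosins. CNN2 (chromosome 19, 1026581 to 1039068), an actin-binding protein of non-muscle cells, was measured at 83.9 CPM with vector and 108 CPM with PKP2, a ratio of 1.29 (1.21 to 1.39), the highest among the members above 50 CPM; with the trend removed it lay at 0.25, just under the bound of 0.26. CNN3, the acidic calponin, lay at 87.4 and 98.5 CPM (ratio 1.13, 1.05 to 1.21). CNN1, the smooth muscle calponin, had 2 counts with vector and 1 with PKP2, both under the floor of 3 counts, and no fold is given. CALD1, caldesmon, which holds myosin off the filament, lay at 159 and 156 CPM with an interval of 0.932 to 1.04. Of the 3 calponins, the 2 that A549 expresses at appreciable levels had intervals above 1.

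Among the proteins of filament assembly and turnover, the small monomer-binding proteins PFN1 and CFL1 were slightly higher and the 3 formins of the set lower. With the trend removed PFN1 lay at 0.00, CFL1 at 0.08 and DIAPH1 at -0.11, while FMN1 and DIAPH3 stayed past 1.2-fold. The ribosomal protein genes, mostly short like PFN1 and CFL1, had a median difference of 0.25, and of 0.13 with the trend removed. PFN1, profilin 1, which feeds actin monomers to growing ends, lay at 1914 and 2186 CPM with a ratio of 1.14 (1.13 to 1.16). CFL1, cofilin, which severs old filaments, lay at 1334 and 1551 CPM with a ratio of 1.16 (1.14 to 1.18), with a fractional count. FMN1 (chromosome 15, 32765545 to 33194733, minus strand), formin 1, an actin nucleator found at cell-cell junctions, was measured at 21.8 CPM with vector and 12.1 CPM with PKP2, 1.80-fold lower (1.51 to 2.15), the largest fold among members with at least 5 CPM. DIAPH3 (chromosome 13, 59665583 to 60163987, minus strand), a diaphanous formin that elongates filaments, lay at 40.8 and 29.1 CPM, 1.40-fold lower (1.25 to 1.58). DIAPH1, its more abundant relative, lay at 231 and 206 CPM, 1.12-fold lower (1.07 to 1.17). All 3 formins of the set were thus lower, 2 of them past 1.2-fold, and FMN1 and DIAPH3 have fractional counts. Of the Ena/VASP proteins, which protect growing ends from capping, ENAH (fractional count) lay at 145 and 123 CPM, 1.17-fold lower (1.11 to 1.25), while VASP lay at 105 and 112 CPM with an interval of 0.999 to 1.14. LASP1, a LIM and SH3 adaptor on actin, lay at 1248 and 1213 CPM (ratio 0.972, 0.954 to 0.991).

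The adhesion plaque proteins gave no common direction. ZYX (chromosome 7, 143381080 to 143391111), zyxin, which is recruited to adhesions and stress fibres under tension, was measured at 177 CPM with vector and 221 CPM with PKP2, a ratio of 1.25 (1.19 to 1.31), at 0.18 with the trend removed. TNS3 (chromosome 7, 47275154 to 47582558, minus strand), tensin 3, an integrin-tail adaptor, lay at 778 and 647 CPM, 1.203-fold lower (1.17 to 1.23), at -0.20 with the trend removed. TNS1, tensin 1, lay at 0.883 and 2.02 CPM, from 15 and 34 counts, a ratio of 2.29 with the wide interval of 1.22 to 4.53. TLN1, talin, which activates integrins, lay at 354 and 324 CPM, 1.09-fold lower (1.05 to 1.13), and LIMS1 (PINCH1, fractional count) at 67.1 and 58.0 CPM, 1.16-fold lower (1.06 to 1.26). ILK, the integrin-linked pseudokinase that binds LIMS1, lay at 105 and 114 CPM with a ratio of 1.08 (1.02 to 1.16), and their partner PARVA, alpha-parvin, at 93.6 and 88.7 CPM with an interval of 0.882 to 1.02. The signalling hubs were level: PTK2 (FAK) lay at 172 and 166 CPM (0.912 to 1.01), PXN (paxillin) at 262 and 269 CPM (0.987 to 1.07), and BCAR1 (p130Cas) at 102.0 and 101.7 CPM (0.932 to 1.07). These 3 did not differ detectably at this depth.

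**Figure D2:**
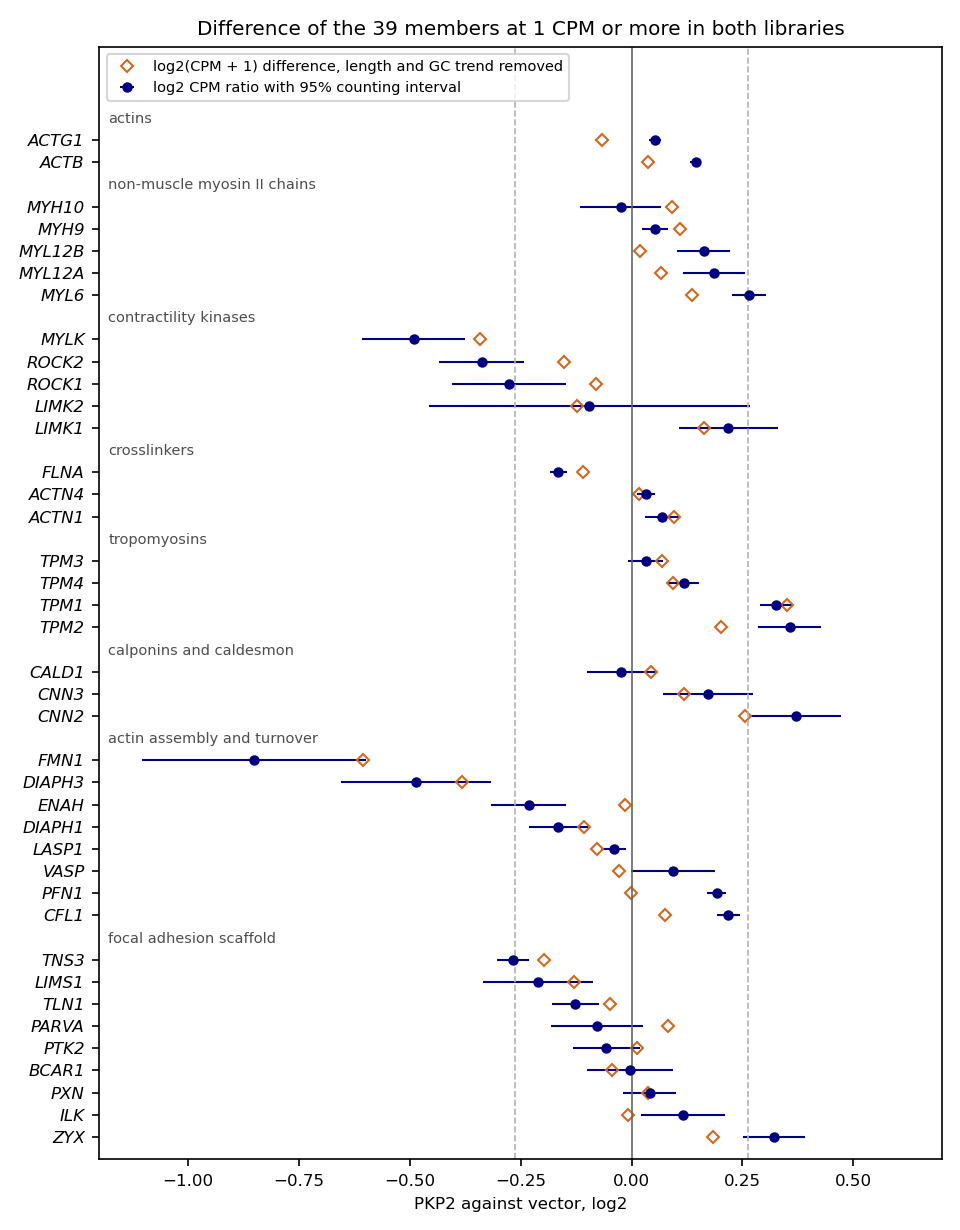
Log2 ratio of PKP2 to vector CPM with its 95% counting interval (filled circles and bars) and the log2(CPM + 1) difference with the trend on transcript length and GC content removed (open diamonds), for the 39 members at 1 CPM or more in both libraries; dashed lines mark 1.2-fold. FMN1, MYLK and DIAPH3 lie left of the line on both measures and TPM1 lies right of it on both.

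Which members were higher and which lower followed transcript length closely. Across the 39 members at 1 CPM or more in both libraries, Spearman's correlation between the difference and the longest annotated transcript was -0.83, and with GC content it was 0.41. Over the 12671 expressed genes with a record the values were -0.46 and 0.37. These are descriptions across genes that share the same 2 libraries, and genes are not independent replicates. Expressed genes were cut into 5 equal groups by length. In the shortest group (up to 2178 nucleotides) all 8 of these 39 members found there were above 0, with a median of 0.19 against 0.13 for all genes of that group. In the next group (to 3174 nucleotides) all 6 were above 0, with a median of 0.13 against 0.05. In the middle group 3 members were above and 3 below 0, with a median of 0.00 against -0.01. In the fourth group (4340 to 6010 nucleotides) 3 were above and 5 below 0, with a median of -0.03 against -0.06. The share of all genes of each group on either side of 0 was not counted. In the longest group (6010 nucleotides and more), 10 of 11 were below 0, with a median of -0.23 against -0.15 for all genes there, the exception being MYH9. The 28 ribosomal protein genes, a list read as a sign of RNA quality and of mostly short transcripts, were above 0 in 28 of 28 cases with a median of 0.25. With the trend removed their median was still 0.13, and 1 of them was past 1.2-fold higher, against 12 before. Not all are short by this measure: the longest RPL13 transcript has 4498 nucleotides. The part of RNA quality or library preparation in the members' differences was not tested.

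Removing an additive trend on length and GC content over all expressed genes left 5 members past 1.2-fold, all of them also past it without the removal. TPM1 lay at 0.35 (0.33 without removal) and TNS1 at 0.78 (0.68) on the higher side, and FMN1 at -0.60 (-0.80), DIAPH3 at -0.38 (-0.47) and MYLK at -0.34 (-0.48) on the lower side. By the same rule 6.56% of all genes with a value were higher and 6.61% lower, so that 2 and 3 of 41 members, or 4.88% and 7.32%, were not far from the background. Without MYL9 and TNS1, which passed the filter only through the PKP2 library, it was 1 higher (2.56%) and 3 lower (7.69%) of 39. Among the members whose mean was 50 CPM or above the SD of the difference was then 0.13, against 0.14 for all genes of that level. A negative relation with length was still present among the 39 members after the removal, with a Spearman correlation of -0.49. The removal used the longest annotated transcript of each gene and was not repeated with another transcript length.

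**Figure D3:**
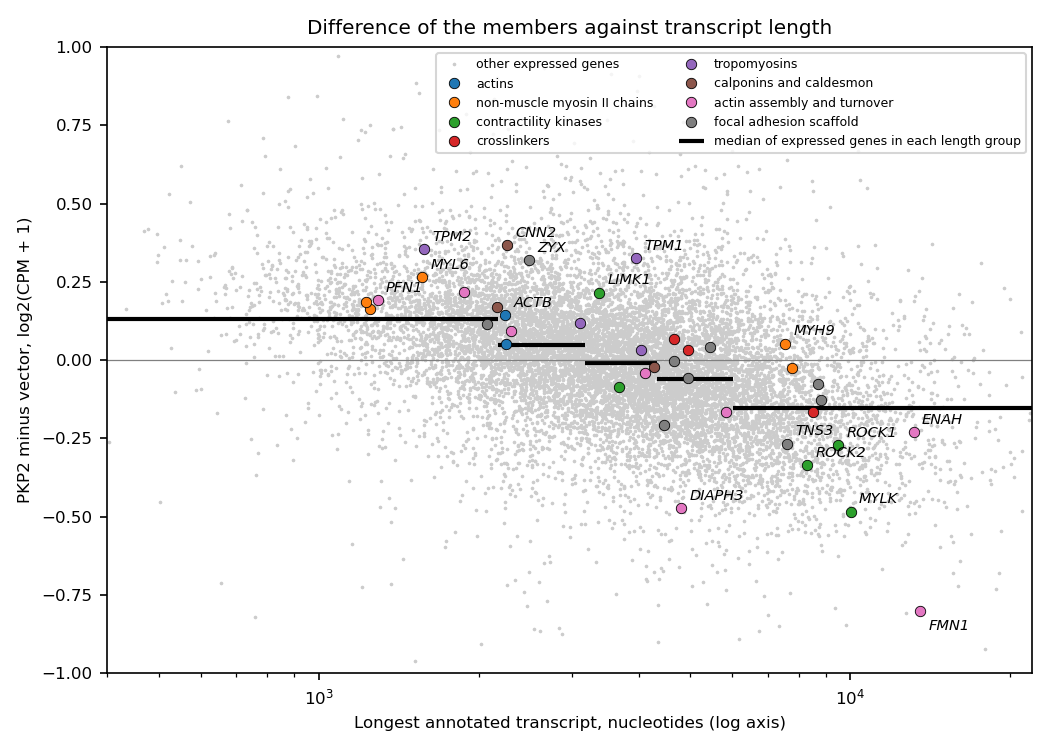
Log2(CPM + 1) difference between the libraries (vertical axis) against the longest annotated transcript in nucleotides (log axis) for the 39 members at 1 CPM or more in both libraries (large points, coloured by role) and the other expressed genes (small grey points; a few lie outside the axes), with the median of each of 5 equal length groups as a black bar. The bars step down from 0.13 to -0.15, members under 3174 nucleotides all lie above 0, and TPM1, DIAPH3, MYLK and FMN1 lie far from the bar of their group.

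Paralogs within the set have related sequence and often similar length, so the balance of a pair was compared between the libraries. This balance does not depend on scaling to depth. Of 15 pairs, 9 had a counting interval of the ratio of ratios that excluded 1, and 5 of these 9 are combinations of the same 4 tropomyosin genes. At this depth such intervals are narrow: of single genes at a mean of 50 CPM or above, 26.1% had an interval above 1 and 32.4% below 1, so the count of pairs is given as a description only. The clearest at matched length of the longest transcript was TPM1 against TPM3, with 3957 and 4041 nucleotides and GC contents of 45.9% and 44.7%. Their median protein-coding transcripts have 1097 and 1647 nucleotides, so the match depends on the transcript chosen. Both genes have fractional counts, so reads may be divided between them and the split is uncertain. TPM1 took 51.4% of their joint counts with vector (exact 95% interval 50.8 to 52.1) and 56.5% with PKP2 (55.9 to 57.1), a ratio of ratios of 1.23 (1.18 to 1.27). On the log2 scale this difference between the genes was 0.29, and it was 0.28 with the length and GC trend removed. TPM1 against TPM4 gave 1.16 (1.12 to 1.196), and TPM1 against TPM2, a pair of unequal length, gave 0.979 with an interval of 0.926 to 1.03.

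The other pairs fell into those whose balance shifted and those where no shift was detectable. DIAPH1 took 85.0% of the joint DIAPH1 and DIAPH3 counts with vector and 87.6% with PKP2, a ratio of ratios of 1.25 (1.10 to 1.42). CNN2 took 49.0% of the joint CNN2 and CNN3 counts with vector and 52.4% with PKP2, a ratio of ratios of 1.15 (1.04 to 1.27). ACTB took 51.4% of the actin counts and then 53.0%, a ratio of ratios of 1.07 (1.05 to 1.08), with the caution that reads of this pair may be shared. VASP against ENAH gave 1.25 (1.15 to 1.37), but their longest transcripts are 2305 and 13168 nucleotides and the log2 difference between them went from 0.32 to -0.02 with the trend removed. No shift was detectable for MYH9 against MYH10 (0.987 to 1.13), MYL12A against MYL12B (0.953 to 1.08), ACTN1 against ACTN4 (0.996 to 1.06), ROCK1 against ROCK2 (0.933 to 1.17) or LIMK1 against LIMK2 (0.955 to 1.62).

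**Figure D4:**
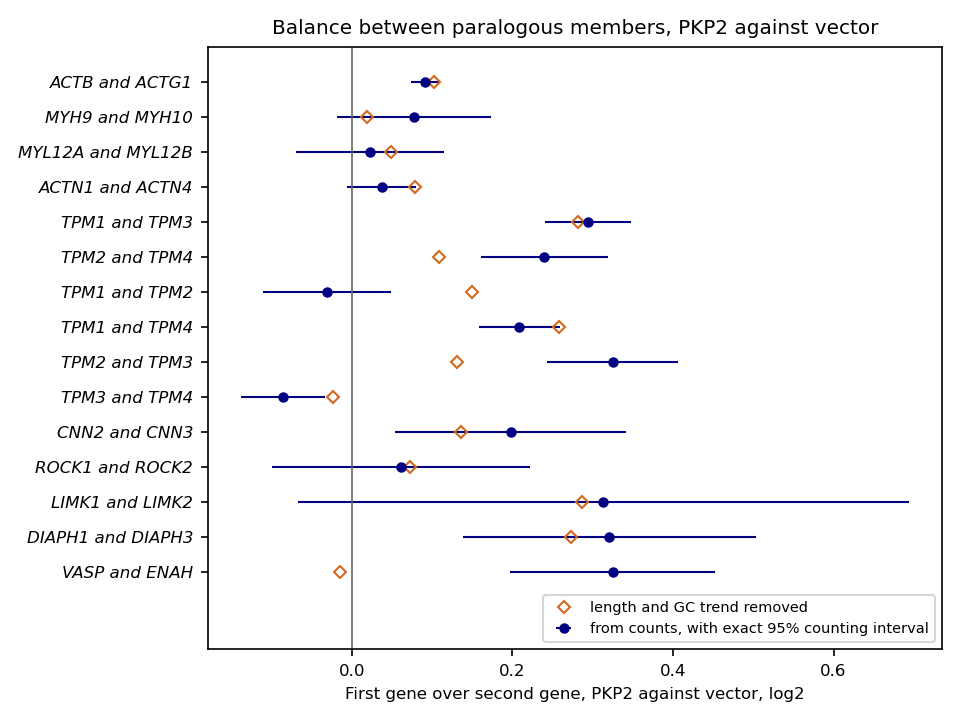
Log2 of the ratio of ratios (first gene over second gene, PKP2 library against vector library) for 15 pairs of paralogous members, with exact 95% counting intervals (filled circles and bars) and the value with the length and GC trend removed (open diamonds). TPM1 over TPM3 and DIAPH1 over DIAPH3 lie right of 0 on both measures, while VASP over ENAH lies right of 0 only before the removal.

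Levels of different genes can be compared only per length, so CPM was divided by the longest transcript in kilobases. On this scale ACTB stood first at 2612 CPM per kilobase with vector and 2887 with PKP2. ACTG1 followed at 2457 and 2549, PFN1 at 1482 and 1693, and CFL1 at 710.2 and 826. The next were ACTN4 (446 and 456), MYL6 (368 and 442), FLNA (324 and 289) and LASP1 (304 and 295). Among the heavy chains MYH9 stood at 138 and 143 CPM per kilobase and MYH10 at 15.1 and 14.8, so the IIA gene was the prevailing one in both libraries. Among the regulatory light chains MYL12B stood at 203 and 227, MYL12A at 149 and 170, and MYL9 at 0.292 and 0.401. The kinases were far lower, with ROCK2 at 14.3 and 11.3, MYLK at 8.60 and 6.12 and ROCK1 at 6.83 and 5.64. FMN1 stood at 1.61 and 0.892. The order within the first 10 depends on the transcript chosen: with the median length of a gene's protein-coding transcripts, 6 of the first 10 members were among the first 10 again.

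The promoters of the members were searched for the CArG box, the SRF site, because SRF is a textbook regulator of many of these genes. Windows of 300 bases, from 250 before to 50 after each RefSeq start (GRCh38.p14), were found for 39 of the 43 members, 74 windows in all. The search took the strict consensus by name, which reads the same on both strands. It was found in 7 of the 74 member windows (9.46%) and in 1.29% of all 35116 windows, which include genes that are not expressed here. By gene it was found in 7 of the 39 members (17.9%) and in 1.60% of the 10441 expressed genes with a window. The members were not chosen without regard to known biology, so these shares are given as a description only. The 7 windows belong to 7 members, and the stretch around each box is printed here because these genes include members from both ends of the range of differences. Each line gives 100 bases upstream of the start, 5′ to 3′ on the gene's strand, with the CArG box in capitals.
CNN2: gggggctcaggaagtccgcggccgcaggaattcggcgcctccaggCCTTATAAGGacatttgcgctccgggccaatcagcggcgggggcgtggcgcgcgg
TPM4: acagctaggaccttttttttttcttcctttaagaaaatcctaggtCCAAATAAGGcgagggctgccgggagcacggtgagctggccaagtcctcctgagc
ACTN1: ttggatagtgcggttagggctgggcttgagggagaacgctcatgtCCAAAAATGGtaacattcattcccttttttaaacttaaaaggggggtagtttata
ACTG1: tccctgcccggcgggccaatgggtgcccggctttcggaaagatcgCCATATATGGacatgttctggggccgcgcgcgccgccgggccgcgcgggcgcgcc
FLNA: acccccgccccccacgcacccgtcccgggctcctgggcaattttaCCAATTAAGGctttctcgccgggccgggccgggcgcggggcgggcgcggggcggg
ROCK2: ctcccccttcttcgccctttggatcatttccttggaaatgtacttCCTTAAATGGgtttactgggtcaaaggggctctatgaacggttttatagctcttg
MYLK: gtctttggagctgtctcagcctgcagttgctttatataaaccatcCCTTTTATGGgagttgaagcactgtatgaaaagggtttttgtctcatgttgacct

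The printed stretches lie at chr19:1026474-1026573 (plus strand) for CNN2, chr19:16067320-16067419 (plus) for TPM4, chr14:68977683-68977782 (minus) for ACTN1, chr17:81512839-81512938 (minus) for ACTG1, chrX:154374674-154374773 (minus) for FLNA, chr2:11345456-11345555 (minus) for ROCK2 and chr3:123620588-123620687 (minus) for MYLK. The box starts 89 bases before the start in CNN2, 94 in ACTG1, FLNA and MYLK, and 73 in ROCK2, and 171 and 173 bases before it in ACTN1 and TPM4. The 7 genes did not share a direction. Most of the RefSeq starts lie within 2.89 kb of the 5′ end of the GENCODE gene. That of ACTG1 lies 11.0 kb inside it and 2.83 kb from the 3′ end, and the longest annotated ACTG1 transcript has 2256 nucleotides. That of MYLK, the single window found for this gene, lies 263.8 kb inside and 10.5 kb from the 3′ end. The MYLK window is thus at an internal start, known for the short product telokin, and is not the promoter of the kinase's long transcripts. The genes' differences ran from -0.48 (MYLK), -0.33 (ROCK2) and -0.17 (FLNA) through 0.05 (ACTG1), 0.07 (ACTN1) and 0.12 (TPM4) to 0.37 (CNN2), with a median of 0.05. Over the 167 expressed genes with a CArG box in a window the median was -0.01. A match is a run of letters and not a measured site, and SRF binding was not measured.

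Other genes of the same machinery, listed from general knowledge outside the 43, were counted by the same rule, under which 8.70% of all expressed genes were higher and 11.0% lower. Of 21 expressed Arp2/3 and other nucleator genes, none was higher and 1 (4.76%) was lower by 1.2-fold, with a median of 0.05. The lower gene was DIAPH2, a diaphanous formin (16.7 and 13.6 CPM), at -0.08 with the trend removed. WASL, the activator N-WASP, at 1.199-fold lower (1.10 to 1.30) and the Arp2/3 subunit ARPC3 with a ratio of 1.19 (1.14 to 1.25) had the next largest differences. The other formins of this list, named after their values were seen, lay on both sides. Ratios were 1.11 for FMNL3 (fractional count), 1.05 for FHOD1 and 1.02 for FMNL1, and 0.959 for INF2, 0.890 for FMNL2 and 0.844 for DAAM1. Of these only FMNL2 had an interval that excluded 1 (0.824 to 0.961). With the trend removed FMNL3 lay at 0.27, past the bound of 0.26 on the higher side. The other formins just named then lay between -0.09 (DAAM1) and 0.03 (FHOD1). Of 20 turnover genes 2 (10.0%) were higher and 1 (5.00%) lower. The higher ones were the monomer-binding thymosins TMSB10 (ratio 1.24, 1.22 to 1.27) and TMSB4X (1.22, 1.197 to 1.25), short transcripts at 0.04 and 0.16 with the trend removed, and the lower one was EPS8, a capping and bundling protein, 1.43-fold lower (1.32 to 1.56) and at -0.42 with the trend removed. Of 21 crosslinkers and membrane links 3 (14.3%) were higher and 4 (19.0%) lower, with a median of -0.12. AHNAK, a giant scaffold under the plasma membrane, lay at 987 and 595 CPM, 1.66-fold lower (1.62 to 1.70) and at -0.55 with the trend removed. UTRN, utrophin, was 1.37-fold lower (1.23 to 1.54), and PDLIM7, a PDZ and LIM protein of actin filaments, was 1.47-fold higher (1.36 to 1.59), at 0.38 with the trend removed.

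The other myosins had a median below 0, and the other plaque proteins were level. Of 18 myosin phosphatase and other myosin genes 1 (5.56%) was higher and 2 (11.1%) lower, with a median of -0.11 and none past 1.2-fold once the trend was removed; PPP1R12B (fractional count) was 1.32-fold lower (1.16 to 1.496), MYO5A 1.26-fold lower (1.17 to 1.35), and the kinase DAPK3 had a ratio of 1.24 (1.10 to 1.40). Of 30 other adhesion plaque genes 2 (6.67%) were higher and none lower, with a median of 0.01. The higher genes were LPXN, leupaxin, a paxillin relative (66 and 94 counts, ratio 1.44, 1.04 to 2.004), and LIMS2, a LIMS1 paralog (11 and 17 counts, 0.690 to 3.69), both named after their values were seen; LIMS2 passed the filter only through the PKP2 library, and without it 1 of 29 was higher. FERMT2 (kindlin 2) was 1.19-fold lower (1.10 to 1.29), LPP (fractional count) 1.17-fold lower (1.10 to 1.24) and VCL (vinculin) 1.15-fold lower (1.11 to 1.19), and all 3 came within 0.10 of 0 with the trend removed.

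SRF and MRTF target genes, of which 5 of the 25 listed are members, had 4 of 22 expressed genes higher (18.2%) and 3 lower (13.6%), with a median of 0.11. TAGLN, transgelin, a calponin relative on stress fibres, lay at 19.6 and 28.4 CPM with a ratio of 1.45 (1.26 to 1.67) and a fractional count, and at 0.44 with the trend removed. It stood with TPM1, TPM2 and PDLIM7 on the higher side. EGR1, an SRF-dependent early response gene, was on the lower side, 1.34-fold lower (1.28 to 1.40).

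**Figure D5:**
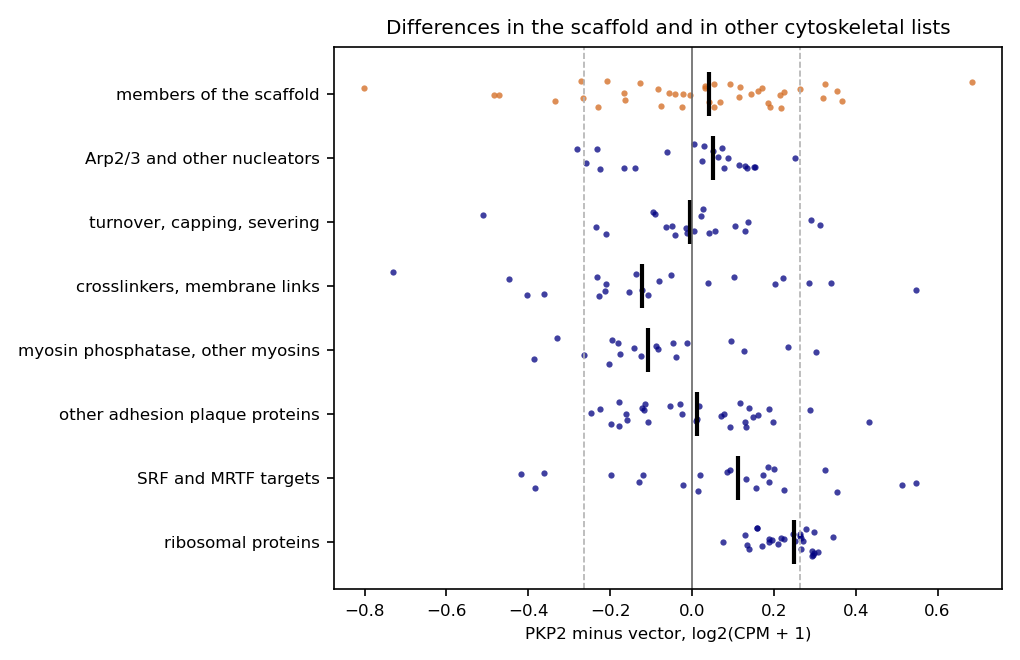
Log2(CPM + 1) difference of each expressed gene (points, spread vertically at random for visibility) in the scaffold set and in 7 other lists, with the list median as a black bar and dashed lines at 1.2-fold. The scaffold median is 0.04, the median of the crosslinkers and membrane links -0.12 and the ribosomal protein median 0.25.

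Several members are also markers of muscle, so other cell types were looked for. Of 8 smooth muscle markers MYH11 had 0 and 2 counts, DES 1 and 3 and ACTG2 0 and 1, and the list summed to 98.7 CPM with vector and 107 CPM with PKP2, nearly all from SMTN, SYNPO2 and ACTA2. SMTN, smoothelin, lay at 50.5 and 62.9 CPM (ratio 1.25, 1.14 to 1.36), SYNPO2 at 28.7 and 21.7 CPM (1.32-fold lower, 1.15 to 1.52) and ACTA2 at 18.8 and 21.5 CPM (interval 0.981 to 1.33). The 5 fibroblast markers with a value summed to 10.6 and 13.8 CPM, mostly COL1A1 at 8.12 and 10.4 CPM (ratio 1.27, 1.01 to 1.61). The 6 striated muscle markers with a value summed to 7.47 and 7.85 CPM, and the 5 endothelial ones to 0.412 and 1.13 CPM. Of the 3 blood markers with a value CD68 gave 78.4 and 82.5 CPM of 82.1 and 86.0 CPM. The 10 epithelial and A549 genes summed to 23765 and 23762 CPM, none of them 1.2-fold apart. The largest differences were at TXNRD1 (1.16-fold lower), CDH1 (1.15-fold lower) and AKR1B10 (1.14-fold lower, fractional count). EPCAM, an epithelial marker of this list, lay at only 1.47 and 1.37 CPM, from 25 and 23 counts. With the trend removed the list median was -0.14, and 1 gene, AKR1B10 at -0.30, was past 1.2-fold lower. In a bulk library fewer cells of a type and less RNA per cell cannot be told apart.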

How the data were processed

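RNA sequencing of the vector library and the PKP2 library, 1 of each, was used. The authors deposited estimated counts per Entrez gene ID, not scaled to depth or length; the submitters' processing notes name HISAT2 2.0.4, Bowtie2, RSEM 1.2.12 and the build GRCh38.p12, without roles. The sources used here do not give the annotation, the filters or the strand setting. Fractional counts mark reads divided between similar genes (2403 genes for vector, 2491 for PKP2), and reads of overlapping antisense genes may be mixed.

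CPM, the difference log2(CPM + 1) and the CPM ratio were computed, the ratio with an exact 95% Clopper-Pearson interval from rounded counts; a ratio of ratios has an exact conditional 95% interval. The floor is 3 counts, 0.177 CPM for vector and 0.178 for PKP2. Symbols came from RefSeq (GRCh38.p14; 16183 IDs matched), coordinates, lengths and GC content from GENCODE 29 (GRCh38) for 98.8% of expressed genes. The trend was an additive lowess fit (span 0.3) that took 22.3% of the variance of the differences. Python 3.11.15, scipy 1.17.1 and statsmodels 0.14.6 were used, and the calculation was tested on simulated data. No test across libraries was possible.

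Members and lists were chosen with earlier results of these data known. Every member is named, as are up to 3 genes per other list whose mean reached 5 CPM and whose difference was largest. The rule asked for promoters of the actins, light chains and the members furthest apart; those with a CArG box are printed instead, chosen after the search, and no protein sequence is shown. One further list of regulators is not reported here.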

Additional observations from a re-analysis of the deposited data

How the results depend on the processing

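With pseudocounts of 0.1 and 5 CPM, no filter, a mean of at least 5 CPM, centring on the median or the trimmed mean, 1 CPM in both libraries or a mean of 50 CPM (the last 2 added after seeing the data), the members at least 1.2-fold higher numbered 4 to 7 and those lower 4 to 6, against 6 and 6, and the median difference stayed between 0.03 and 0.05. Removing the length and GC trend left 2 higher and 3 lower, with a median of 0.02, and moved 23 of 41 members outside their counting interval; of the other settings, the pseudocount of 5 CPM did so for 1 member, TNS1. Leaving out fractional counts left 5 higher and 3 lower, since FMN1, DIAPH3 and ROCK2 were left out, with a median of 0.06. At 1.5-fold the counts were 1 and 1, and at 2-fold 0 and 0. With the median protein-coding transcript as the length, 6 of the first 10 members per kilobase stayed among the first 10; short partial transcripts in the annotation enter that median. Centring moved all genes by less than 0.01. No called member reversed its direction under these settings. The depth limits MYL9, TNS1, FLNC and CNN1, which had at most 34 counts, and LIMK2. No paired analysis was possible because each group has 1 library.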
